A study of Homo sapiens with 12 samples.

Results

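Transcripts of lysosomal enzymes and membrane proteins were followed through the induction of TAZ-4SA in MCF10A cells. The set held 37 genes chosen by name from known lysosomal biology. No measured value entered the rule, but earlier results of these data were known when the genes were chosen. All 37 were found by Ensembl identifier among the 60483 gene rows of each table, and all 37 were among the 14822 genes that passed the filter on low counts and were tested. By role they comprised 8 membrane proteins, 11 proteases, 9 glycosidases, 6 lipid hydrolases, saposins and carriers, and 3 regulators.

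MCF10A is an immortalised human mammary epithelial cell line that does not form tumours. Cells of all groups, No Dox included, had been transduced with a doxycycline (Dox)-inducible TAZ-4SA, a constitutively active form of TAZ, the co-activator restrained by the Hippo pathway. The 12 RNA-seq libraries were 3 each of cells without Dox (No Dox) and of cells kept for 24, 48 or 72 h in 0.05 µg/mL Dox. MCF10A cells treated with Dox but lacking TAZ-4SA were not analysed here, so TAZ-4SA, Dox itself and time in culture cannot be told apart. The labels give no origin for the replicates. If these were not separate cultures, the p-values below describe only how these samples vary, which may be technical.

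Library totals ranged from 15382564 to 26570132 expected counts. CPM below are expected counts relative to the TMM-adjusted size of their library, and n = 3 for each group. WWTR1, the gene of TAZ, was at 71.7 ± 2.88 CPM (SD) in No Dox and at 887 ± 68.15, 844 ± 73.6 and 994 ± 59.3 CPM at 24, 48 and 72 h. In bulk RNA, fewer cells expressing a gene and less RNA per cell cannot be told apart. Of 11 mammary epithelial markers 10 were at 1 CPM or more in every group, KRT19 being the exception, but they moved in opposite directions. The luminal keratins KRT8 and KRT18 were called higher at each time (KRT8 210.7 CPM in No Dox and 885, 1650.0 and 2229 CPM at 24, 48 and 72 h), and the basal markers KRT17, ITGB4 and TP63 were called lower at each time (TP63 77.4 CPM in No Dox and 4.45, 2.77 and 1.49 CPM in Dox). LAMB3 at 48 and 72 h and KRT5 at 72 h were called lower as well. EPCAM, CDH1 and the basal keratin KRT14 were not called. KRT14 did not share the lower direction at 24 h, where its log2 fold change was 0.9455 (adjusted p = 5.837e-09). At 48 and 72 h KRT14 was at -0.014 and -0.1071, and adjusted p passed at neither time. The part of these marker shifts in the changes of lysosomal genes was not tested.

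Lysosomes are acidic organelles in which soluble hydrolases digest proteins, glycans and lipids delivered by endocytosis and autophagy. Heavily glycosylated membrane proteins such as LAMP1 line the organelle. Many lysosomal genes carry a CLEAR element, an extended E-box read by the transcription factors TFEB and TFE3, which the nutrient-sensing kinase mTOR holds in the cytoplasm of fed cells. TAZ does not bind DNA itself and acts largely through TEAD factors, often beside AP-1.

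Promoters were therefore searched for these motifs before turning to transcript levels. RefSeq promoters (GRCh38.p14, 250 bases before to 50 after the start) were matched for 29 of the 37 genes. The E-box CACGTG, a palindrome, was found in 8 of 29 promoters (27.6%), against 7.44% of all 27305 promoters of the same length and 10.2% of 10205 promoters of tested protein-coding genes. The CLEAR core TCACGTGA, also a palindrome, was found in 4 of 29 (13.8%), against 1.04% of all promoters and 1.999% of those of tested protein-coding genes. The longer form GTCACGTG (CACGTGAC on the other strand) was found in 5 of 29 (17.2%), against 2.53% and 4.43%. Both CLEAR forms contain the E-box, so the 3 counts overlap. The TEAD motif GGAATG, searched on both strands, was in 4 of 29 promoters (13.8%), against 14.1% and 10.8%. The AP-1 motif TGAGTCA, searched on both strands, was in 3 of 29 (10.3%), against 4.92% and 2.999%. A match is a description of letters, not a binding site.

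**Figure D1:**
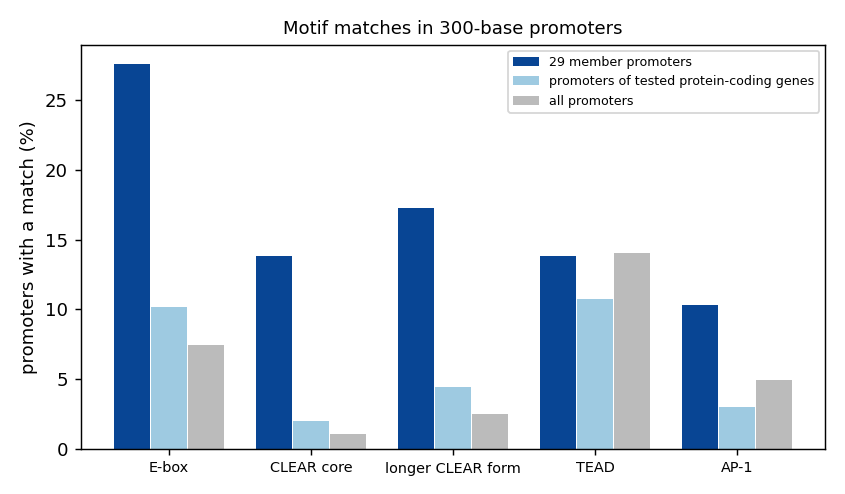
Share of promoters (%) with at least 1 match to each motif, for the 29 lysosomal promoters, promoters of tested protein-coding genes and all promoters. The lysosomal share was 27.6% for the E-box and 13.8% for TEAD, where 10.2% and 10.8% of tested protein-coding promoters had a match.

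The stretches with the E-boxes of 6 genes are shown because their transcripts behaved differently although they carry the same motif, and that of LAPTM5 because it holds a TEAD motif and had the steepest change in the set. Each is read 5′ to 3′ on the gene's strand, positions count back from -1 as the last base before the RefSeq start, and capitals mark the E-box CACGTG or, in LAPTM5, GGAATG. The windows are chr13:113297039-113297238 (plus strand, -200 to -1) for LAMP1, chr17:80101481-80101580 (plus, -100 to -1) for GAA, chr11:1763928-1764027 (minus, -100 to -1) for CTSD, chr11:66568607-66568756 (minus, -150 to -1) for CTSF, chr19:7522524-7522623 (plus, -100 to -1) for MCOLN1, chr20:45891235-45891334 (plus, -100 to -1) for CTSA and chr1:30757915-30758014 (minus, GGAATG at -190) for LAPTM5.
LAMP1: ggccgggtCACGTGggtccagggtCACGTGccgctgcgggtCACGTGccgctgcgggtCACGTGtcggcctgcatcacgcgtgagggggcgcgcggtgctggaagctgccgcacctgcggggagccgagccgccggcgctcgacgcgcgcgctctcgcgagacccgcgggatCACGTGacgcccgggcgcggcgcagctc
GAA: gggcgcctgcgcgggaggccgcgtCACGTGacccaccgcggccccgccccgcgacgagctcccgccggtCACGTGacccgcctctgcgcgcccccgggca
CTSD: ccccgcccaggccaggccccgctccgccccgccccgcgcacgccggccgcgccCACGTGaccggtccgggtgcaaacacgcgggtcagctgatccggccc
CTSF: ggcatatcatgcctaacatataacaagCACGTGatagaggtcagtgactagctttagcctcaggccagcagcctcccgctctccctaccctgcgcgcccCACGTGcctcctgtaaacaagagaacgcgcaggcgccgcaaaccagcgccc
MCOLN1: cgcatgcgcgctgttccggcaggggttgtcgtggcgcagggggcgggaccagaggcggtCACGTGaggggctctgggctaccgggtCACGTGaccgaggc
CTSA: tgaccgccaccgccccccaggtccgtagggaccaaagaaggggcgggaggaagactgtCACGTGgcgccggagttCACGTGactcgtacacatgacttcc
LAPTM5: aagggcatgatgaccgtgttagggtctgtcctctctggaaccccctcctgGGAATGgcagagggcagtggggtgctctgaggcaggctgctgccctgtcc

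LAMP1 had the most E-boxes of the set, 6, of which 5 lie in the printed stretch and the sixth runs across the start. CTSA, CTSF, GAA and MCOLN1 had 2 each and CTSD, CD63 and NEU1 had 1 each. Of the 10 matched genes that were called in a Dox comparison, 3 had an E-box (CTSD, CTSF and GAA). The CLEAR core was in 1 (GAA) and its longer form in 2 (CTSD and GAA). A TEAD motif was in 2 (GRN and LAPTM5) and an AP-1 motif in 0. Among all 29 matched genes, the called ones included, these motifs were in 8, 4, 5, 4 and 3. A difference between called genes and the rest was not tested.

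The first question was how many of the 37 transcripts differed after each time in Dox. A gene was called where the Benjamini-Hochberg adjusted p of edgeR's quasi-likelihood test was under 0.05 and the fold change at least 2. At 24 h 1 gene was called higher and 9 lower, which is 2.70% and 24.3% of the 37, against 12% and 17.7% of all genes tested. The 48 h comparison called 2 higher (5.41%) and 8 lower (21.6%), against 10.6% and 14.4% of all genes. After 72 h 2 were called higher (5.41%) and 7 lower (18.9%), against 10.2% and 12.3%. Most lysosomal transcripts moved by less than 2-fold, and adjusted p alone passed for 13 higher and 20 lower at 24 h, 11 and 19 at 48 h, and 10 and 18 at 72 h. These counts are of 37 genes, and the same rule passed 37.1% higher and 38.1% lower of all genes at 24 h, 36% and 35.8% at 48 h, and 34.3% and 34.8% at 72 h. The median log2 fold change of the set was -0.31, -0.13 and -0.19 at the 3 times, against -0.03, -0.01 and -0.02 for all genes tested. The 3 comparisons share the No Dox libraries.

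Calls fell on 13 of the 37 genes, 10 of them lower and 3 higher, while 24 were never called. CTSD, CTSF, CTSK, CTSS, GAA and TFEB were called lower at all 3 times. LAPTM5 was lower at 24 and 48 h, SQSTM1 at 48 and 72 h, and PSAP and GRN at 24 h alone. GLA was called higher at 24 h alone, and FUCA1 and LIPA at 48 and 72 h. HEXA was the 1 gene whose adjusted p passed at no time.

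**Figure D2:**
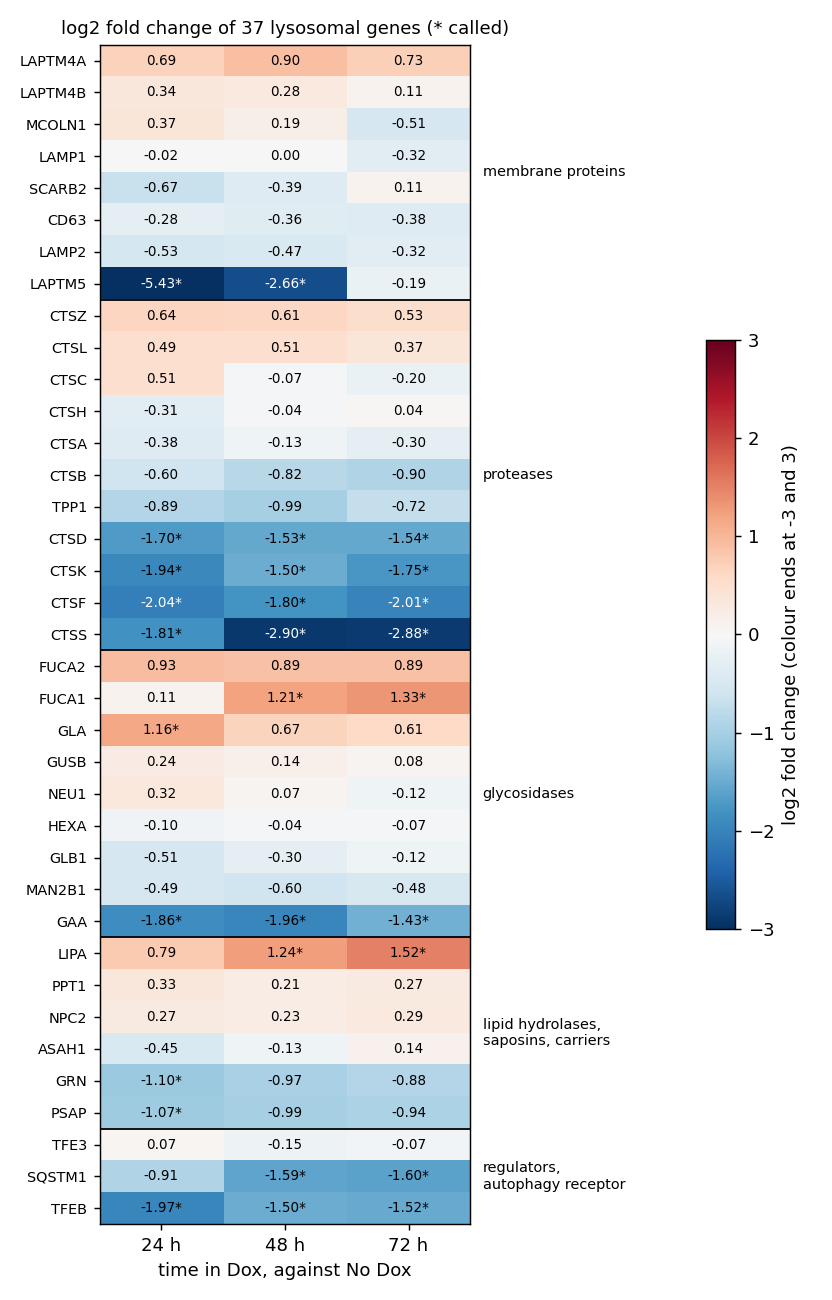
Log2 fold change of each of the 37 genes at 24, 48 and 72 h (columns) against No Dox, grouped by role, with asterisks on called values. The 4 proteases at the foot of their block were called lower at every time, at -1.50 to -2.90, and LIPA rose to 1.52 at 72 h. The -2.90 is CTSS at 48 h, which rests on few counts and passed the low-count filter through No Dox.

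Proteases held the most calls. Of 11, edgeR called 4 lower at each time (36.4%, against 17.7%, 14.4% and 12.3% of all genes at 24, 48 and 72 h), and DESeq2 called a further one, TPP1, at 48 h. Both tools called 0 higher, against 12%, 10.6% and 10.2% of all genes. CTSS, counted among the 4, passed the low-count filter through its No Dox libraries, where it was highest, so the filter favoured its lower direction. The median log2 fold changes of the 11 were -0.60, -0.82 and -0.72 after 24, 48 and 72 h in Dox. At adjusted p alone 3, 2 and 2 were higher and 8, 6 and 8 were lower at the 3 times, and an unadjusted p under 0.05 gave the same numbers. The lower ones are 72.7%, 54.5% and 72.7% of the 11, against 38.1%, 35.8% and 34.8% of all genes.

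CTSD encodes cathepsin D, the main aspartic protease of lysosomes. Its level was 422, 398 and 442 CPM in the No Dox libraries, 141, 114 and 135 CPM at 24 h, 155.5, 142 and 141 CPM at 48 h, and 157, 139 and 137 CPM at 72 h. All 9 Dox libraries lay under the lowest No Dox library, between 114 and 157 CPM. Log2 fold changes were -1.70, -1.53 and -1.54 (SE 0.071, 0.070 and 0.070), with adjusted p of 5.02e-15, 3.11e-14 and 3.01e-14. Of the annotated exonic bases of CTSD, 22.9% are shared with a same-strand protein-coding gene model that runs through it and 23.4% with an opposite-strand lncRNA. The uncertainty that RSEM gave for shared reads stayed under 5% of the count for all 37 genes. RSEM ran under GENCODE version 22, whereas the overlaps given here are from version 44. Any overlapping gene model absent from version 22 could not enter that uncertainty.

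CTSF encodes cathepsin F, a cysteine protease. It was at 42.8, 46.1 and 47.5 CPM in No Dox, 11.6, 9.70 and 11.8 CPM at 24 h, 13.1, 13.1 and 13.0 CPM at 48 h, and 12.5, 9.90 and 11.4 CPM at 72 h. This is about the same low level at each time in Dox, and no Dox library reached the No Dox range. Log2 fold changes were -2.04, -1.80 and -2.01 (SE 0.089, 0.087 and 0.088), with adjusted p of 1.11e-14, 8.16e-14 and 1.76e-14.

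CTSK and CTSS are neighbours on chromosome 1, both on the minus strand. CTSS lies at 150730079 to 150765957 and CTSK at 150794880 to 150809577 (GRCh38), 28.92 kb apart. CTSK encodes the cathepsin with which osteoclasts degrade collagen. Its level was 5.53, 5.115 and 4.83 CPM in No Dox, 1.08, 1.57 and 1.39 CPM at 24 h, 1.99, 1.83 and 1.62 CPM at 48 h, and 1.61, 1.25 and 1.68 CPM at 72 h. The Dox libraries did not overlap with No Dox, and log2 fold changes were -1.94, -1.50 and -1.75 (SE 0.21, 0.20 and 0.20; adjusted p 3.60e-08, 9.49e-07 and 1.51e-07). Of 6 osteoclast markers 5 were under 1 CPM in every group, with OCSTAMP, DCSTAMP and CALCR at 0 in all 12 libraries and the exception TNFRSF11A at 4.36 CPM in No Dox and 7.55, 6.49 and 4.93 CPM at 24, 48 and 72 h.

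CTSS encodes cathepsin S, known for processing of the invariant chain in antigen-presenting cells, and was the least abundant gene of the set. It had 39, 18 and 35 counts in the No Dox libraries, 11, 10 and 5 at 24 h, 2, 6 and 4 at 48 h, and 3, 4 and 6 at 72 h. These correspond to 1.80, 1.14 and 1.72 CPM in No Dox and 0.0994 to 0.515 CPM in Dox. Log2 fold changes of -1.81, -2.90 and -2.88 carried the largest SE among the 37 genes at each time (0.37, 0.43 and 0.42), with adjusted p of 0.000179, 3.56e-06 and 3.49e-06. At 48 and 72 h the level rested on 6 counts or fewer per library, so the size of the change is known only roughly. CTSS passed the low-count filter through its No Dox libraries, so a lower direction in Dox was favoured beforehand. With effective lengths in the fit the 24 h value was -2.95 (adjusted p = 0.000152).

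The other 7 proteases stayed under 2-fold and did not move one way. CTSB, a cysteine cathepsin, was at 588 ± 11.7 CPM in No Dox and at 388 ± 16.4, 332 ± 11.5 and 315.5 ± 5.56 CPM at 24, 48 and 72 h. TPP1, a tripeptidyl peptidase, was at 48.0 ± 0.637 CPM in No Dox and at 25.95 ± 0.795, 24.2 ± 1.30 and 29.1 ± 1.54 CPM. Both passed adjusted p at every time, with log2 fold changes of -0.60, -0.82 and -0.90 for CTSB and -0.89, -0.99 and -0.72 for TPP1. CTSZ, a carboxypeptidase, differed in the other direction at 0.64, 0.61 and 0.53, and so did CTSL, a cysteine endopeptidase, at 0.49, 0.51 and 0.37. All 6 values passed adjusted p, the weakest at 1.77e-05 for CTSL at 72 h. CTSZ shares 31.7% of its annotated exonic bases with NELFCD on the opposite strand. CTSH, an aminopeptidase, and CTSA, which also protects other lysosomal enzymes, were lower at adjusted p alone at 24 h (-0.31 and -0.38), and CTSA also at 72 h (-0.30).

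Glycosidases, the enzymes that trim sugars from glycans and glycolipids, split in both directions, with 1 of 9 called higher and 1 lower at each time (11.1%, near or below the shares of all genes). Their median log2 fold change was 0.11, 0.07 and -0.07 at 24, 48 and 72 h. GAA, the acid glucosidase that degrades glycogen in lysosomes, was the 1 called lower. Its libraries were at 43.0, 44.4 and 43.7 CPM in No Dox, 12.5, 10.00 and 13.7 CPM at 24 h, 10.9, 10.9 and 12.1 CPM at 48 h, and 16.6, 17.35 and 14.9 CPM at 72 h. Every Dox library was at 17.35 CPM or less. Log2 fold changes were -1.86, -1.96 and -1.43 (SE 0.093, 0.094 and 0.090), with adjusted p of 1.19e-13, 6.93e-14 and 6.86e-12. At 72 h GAA stood 0.43 above 24 h on the log2 scale (adjusted p = 0.000976), short of 2-fold.

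GLA, the alpha-galactosidase that acts on globotriaosylceramide, was highest at 24 h. It was at 16.2, 17.2 and 17.7 CPM in No Dox, 40.75, 36.4 and 36.7 CPM at 24 h, 27.6, 26.85 and 26.7 CPM at 48 h, and 24.2, 27.05 and 26.65 CPM at 72 h. The groups in Dox did not overlap with No Dox, and the call was made at 24 h alone, with log2 fold changes of 1.16, 0.67 and 0.61 (SE 0.074, 0.076 and 0.076; adjusted p 6.62e-12, 8.24e-08 and 3.70e-07). GLA shares 8.99% of its annotated exonic bases with RPL36A on the opposite strand.

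FUCA1, the tissue alpha-fucosidase, had the opposite timing. Its libraries were at 11.7, 10.2 and 10.7 CPM in No Dox and 13.2, 11.03 and 11.01 CPM at 24 h, which overlap. They reached 25.4, 24.3 and 26.4 CPM at 48 h and 29.4, 25.9 and 27.1 CPM at 72 h, all above the first 2 groups. Log2 fold changes were 0.11, 1.21 and 1.33 (SE 0.098, 0.090 and 0.090), with adjusted p of 0.313, 1.11e-10 and 2.32e-11. FUCA2, a secreted and lysosomal fucosidase, was higher at every time without reaching 2-fold, at 60.6 ± 1.33 CPM in No Dox and 116 ± 3.82, 112 ± 2.72 and 112 ± 4.92 CPM in Dox (0.93, 0.89 and 0.89, adjusted p 8.07e-13, 2.15e-12 and 2.64e-12).

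Of the other 5 glycosidases, MAN2B1, the acid mannosidase, passed adjusted p in the lower direction at each time (-0.49, -0.60 and -0.48). GLB1, the beta-galactosidase, did so at 24 and 48 h (-0.51 and -0.30) and was at -0.12 at 72 h (adjusted p = 0.082). GUSB, the beta-glucuronidase, was higher at adjusted p alone at 24 and 48 h (0.24 and 0.14), and the sialidase NEU1 at 24 h (0.32). HEXA, the alpha subunit of beta-hexosaminidase, was at 57.1 ± 0.751 CPM in No Dox and 53.4 ± 4.45, 55.3 ± 2.98 and 54.5 ± 3.77 CPM in Dox, and its groups overlapped at each time.

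Enzymes and carriers of lipids also divided. LIPA, the acid lipase that hydrolyses cholesteryl esters and triglycerides, was higher at each later time in Dox. Its libraries were at 76.8, 84.4 and 82.3 CPM in No Dox, 137, 140 and 143.5 CPM at 24 h, 188, 198 and 189.7 CPM at 48 h, and 229, 231 and 237 CPM at 72 h. No 2 groups overlapped. Log2 fold changes were 0.79, 1.24 and 1.52 (SE 0.050 each), with adjusted p of 6.27e-12, 3.04e-15 and 1.09e-16, and the change between 72 h and 24 h was 0.73 (adjusted p = 5.58e-11).

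PSAP, the precursor of the saposins that present sphingolipids to their hydrolases, was at 845, 815 and 848 CPM in No Dox, 414, 380.2 and 402 CPM at 24 h, 429.8, 410.5 and 418 CPM at 48 h, and 453, 402 and 449 CPM at 72 h. Its log2 fold changes of -1.07, -0.99 and -0.94 (SE 0.050 each) lay on both sides of the 2-fold line. Adjusted p was 3.89e-14, 1.57e-13 and 4.49e-13. GRN, which encodes progranulin, a partner of prosaposin in delivery to lysosomes, had a closely similar course. It was at 203, 192 and 209 CPM in No Dox, 103, 81.3 and 97.4 CPM at 24 h, 108, 99.7 and 100.0 CPM at 48 h, and 115, 103 and 109.5 CPM at 72 h. Here log2 fold changes were -1.10, -0.97 and -0.88 (SE 0.070, 0.069 and 0.069; adjusted p 5.94e-12, 5.27e-11 and 2.69e-10). For both genes every Dox library lay below the lowest No Dox library at each of the 3 times.

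NPC2, the carrier of cholesterol out of the lysosomal lumen, and PPT1, a thioesterase that removes palmitate from proteins, were modestly higher at each time (0.27, 0.23 and 0.29 for NPC2, and 0.33, 0.21 and 0.27 for PPT1), and each value passed adjusted p. ASAH1, the acid ceramidase, was at -0.45 at 24 h (adjusted p = 2.00e-07), -0.13 at 48 h (adjusted p = 0.0439) and 0.14 at 72 h (adjusted p = 0.0259). With effective lengths in the fit these were -0.33, 0.0153 and 0.15 (adjusted p 0.000495, 0.853 and 0.0713), so a difference at 48 and 72 h was not stable to that choice. Its level was 68.2 ± 1.64 CPM in No Dox and 49.8 ± 1.83, 62.5 ± 2.90 and 75.2 ± 0.641 CPM at 24, 48 and 72 h.

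Membrane proteins gave a single called gene, LAPTM5, and 7 without a call. LAPTM5, best known from leukocytes, was at 36.2, 33.7 and 37.3 CPM in No Dox. It was at 0.702, 0.735 and 1.09 CPM at 24 h, 6.16, 6.005 and 4.54 CPM at 48 h, and 33.5, 28.7 and 31.8 CPM at 72 h. The 24 h libraries held 15, 15 and 18 counts, against 786, 533 and 757 counts in No Dox. The log2 fold change was -5.43 at 24 h (SE 0.15, adjusted p = 3.65e-18), -2.66 at 48 h (SE 0.11, adjusted p = 2.67e-15) and -0.19 at 72 h (SE 0.086, adjusted p = 0.0588). The 24 h value was the largest change of any of the 37 genes at any of the 3 times.

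Because LAPTM5 is a leukocyte gene, markers of those cells were read beside it. Of 13 macrophage and leukocyte markers, 11 were under 1 CPM in every group, with TYROBP and AIF1 at 0 in all 12 libraries and PTPRC at 0 in all Dox libraries and at 0.0154 ± 0.0266 CPM in No Dox. CD14 was the highest of them in No Dox, at 21.1 ± 1.89 CPM there and 2.07 ± 0.0274, 3.72 ± 0.820 and 2.78 ± 0.397 CPM at 24, 48 and 72 h. CSF1R was at 2.66 ± 0.541 CPM in No Dox and 2.68 ± 0.374, 5.02 ± 0.570 and 3.8 ± 0.609 CPM in Dox. Their summed level was 21.98 to 27.05 CPM in No Dox, 4.46 to 5.29 CPM at 24 h, 8.11 to 10.2 CPM at 48 h and 6.55 to 7.36 CPM at 72 h. At 72 h LAPTM5 was within 0.19 of No Dox on the log2 scale, CD14 was at -2.95 and CSF1R at 0.51. Any link between these markers and LAPTM5 was not tested. The annotation places an opposite-strand lncRNA over 19.3% of the exonic bases of LAPTM5.

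LAPTM4A and LAPTM4B, relatives of LAPTM5 without its leukocyte bias, showed no such fall. LAPTM4A was at 179 ± 9.80 CPM in No Dox and 288 ± 0.714, 333.5 ± 12.2 and 296 ± 12.3 CPM in Dox (0.69, 0.90 and 0.73, adjusted p 6.10e-11, 7.91e-13 and 3.32e-11), and LAPTM4B was at 0.34, 0.28 and 0.11, of which the first 2 passed adjusted p. The main membrane glycoproteins differed little. LAMP1 was at 194 ± 3.98 CPM in No Dox and 192 ± 12.95, 194.5 ± 12.5 and 155 ± 10.8 CPM in Dox, with a difference at 72 h alone (-0.32, adjusted p = 8.56e-05). LAMP2, a relative of LAMP1 that takes part in autophagosome fusion and chaperone-mediated autophagy, was at -0.53, -0.47 and -0.32, and the tetraspanin CD63 at -0.28, -0.36 and -0.38, all 6 with adjusted p under 0.05.

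SCARB2, the receptor that brings glucocerebrosidase to lysosomes, resembled LAPTM5 in shape at a far smaller scale. It was at 140 ± 3.41 CPM in No Dox and at 87.6 ± 4.52, 106.5 ± 3.56 and 150.4 ± 3.14 CPM at 24, 48 and 72 h (-0.67, -0.39 and 0.11, adjusted p 1.31e-10, 5.89e-07 and 0.0663). MCOLN1, the calcium channel mucolipin-1, went the other way round, with 13.3 ± 1.20 CPM in No Dox and 17.3 ± 1.56, 15.2 ± 0.662 and 9.41 ± 1.05 CPM in Dox. Its log2 fold changes were 0.37 at 24 h (adjusted p = 0.0022), 0.19 at 48 h (adjusted p = 0.108) and -0.51 at 72 h (adjusted p = 0.000261).

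The last question on the 37 genes was how the factors that read CLEAR elements moved. TFEB, a master regulator of lysosome formation, was at 13.7, 16.0 and 13.0 CPM in No Dox, 3.555, 3.53 and 3.81 CPM at 24 h, 5.515, 4.22 and 5.45 CPM at 48 h, and 5.08, 5.32 and 4.575 CPM at 72 h. The highest Dox library was at 5.515 CPM and the lowest No Dox library at 12.96 CPM. Log2 fold changes were -1.97, -1.50 and -1.52 (SE 0.14, 0.13 and 0.13), with adjusted p of 2.73e-11, 1.39e-09 and 1.20e-09. TFE3, its relative, kept to a narrow range. It was at 63.9, 64.0 and 63.0 CPM in No Dox and 70.9, 62.1 and 66.9 CPM at 24 h. Its libraries were at 61.3, 54.0 and 56.8 CPM at 48 h and 58.5, 61.1 and 61.6 CPM at 72 h. It was not called at any time (0.07, -0.15 and -0.07), and adjusted p passed at 48 h alone (0.0343). Activity of either factor depends on where the protein resides, which RNA does not measure.

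SQSTM1 encodes p62, the receptor that carries ubiquitinated cargo into autophagosomes. It was at 566, 569 and 579 CPM in No Dox, 307, 296 and 308 CPM at 24 h, 196.5, 189 and 185 CPM at 48 h, and 186, 190.3 and 189 CPM at 72 h. Libraries of each group lay close together, and the difference was larger at 48 and 72 h than at 24 h. The log2 fold changes were -0.91, -1.59 and -1.60 (SE 0.043, 0.044 and 0.044), with adjusted p of 3.49e-14, 5.11e-18 and 4.51e-18, and 72 h was lower than 24 h by adjusted p (-0.69, 2.61e-11). SQSTM1 shares 21.0% of its annotated exonic bases with MRNIP on the opposite strand.

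**Figure D3:**
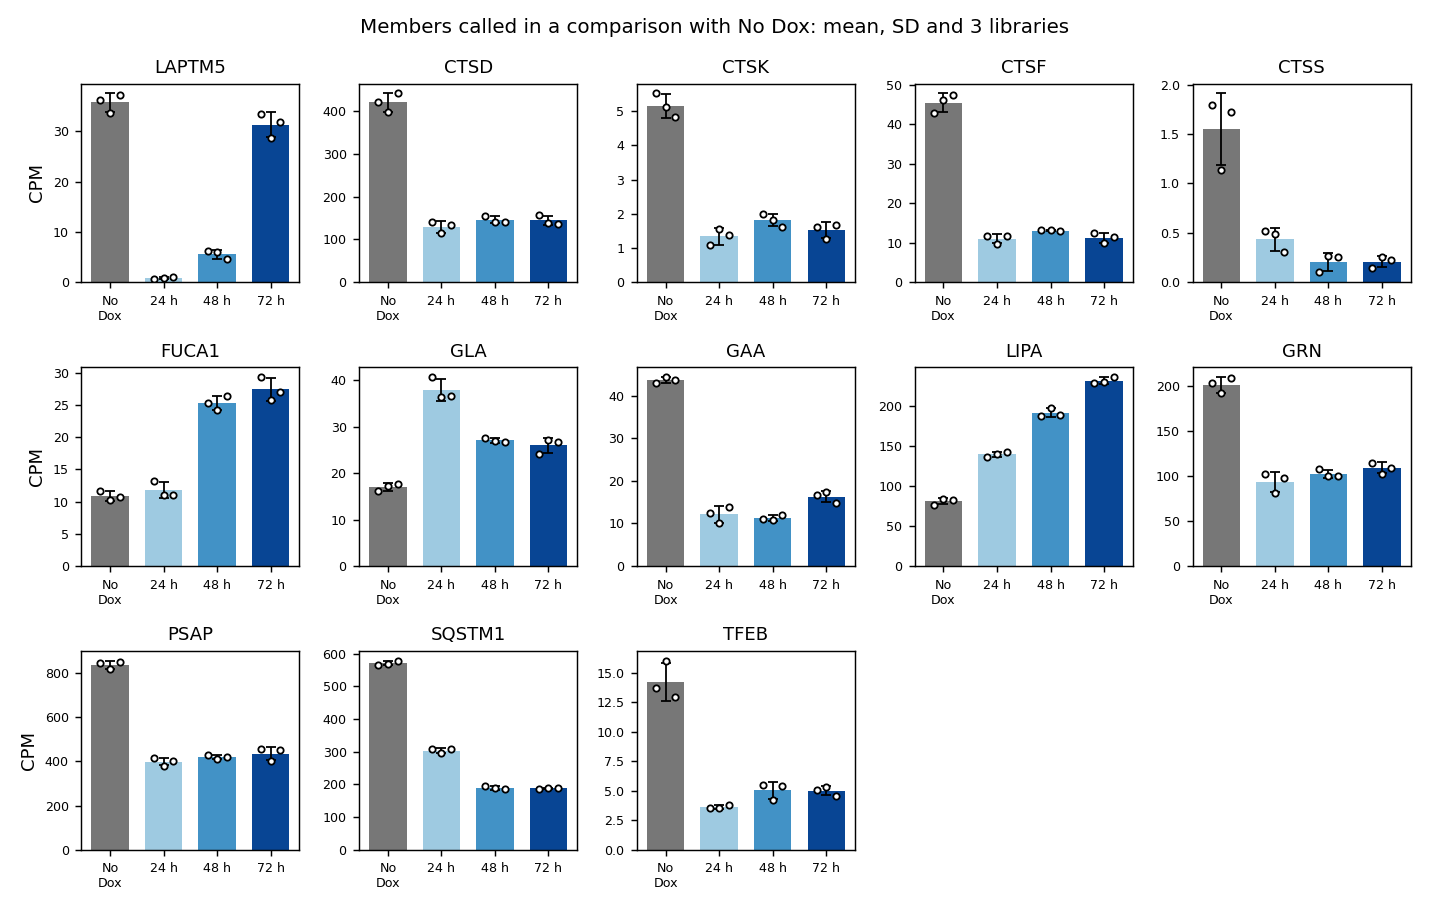
Level in CPM of the 13 genes called against No Dox, for the 4 groups; each bar is the mean of a group, the whisker its SD and each dot 1 library, and each panel starts at 0 with its own scale. LAPTM5 is at 0.842 CPM at 24 h and 31.3 CPM at 72 h, and LIPA stands higher at each later time.

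Comparison of 72 h with 24 h asked which transcripts went on moving in Dox. LAPTM5 and FUCA1 were called higher (5.24 and 1.22), which is 5.41% of the 37, against 8.28% of all genes. None of the 37 was called lower by edgeR or by DESeq2 (0 each), against 3.99% of all genes, and 13 were lower at an unadjusted p under 0.05. Adjusted p alone passed for 13 higher and 9 lower, which is 35.1% and 24.3% of the 37, against 30.5% and 30.2% of all genes. The median log2 fold change of the set was 0.03, against 0.01 for all genes, and its sign depended on single libraries. It was -0.03 without 24 h replicate 2 and -0.0060 without 72 h replicate 1, and it was 0.05, 0.08 and 0.01 without 24 h replicate 1, 72 h replicate 2 and 72 h replicate 3. CTSD, CTSF and CTSK overlapped between 24 and 72 h and did not pass adjusted p (0.0671, 0.753 and 0.498), so no change between these times was detected for them.

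CPM do not correct for gene length, so levels were compared between genes by the deposited TPM. In No Dox the order began with CD63 (527 TPM), PSAP (390.3), NPC2 (373), CTSB (354), SQSTM1 (329) and CTSD (271), and it ended with CTSK (4.54) and CTSS (1.61). At 72 h it began with NPC2 (495), CD63 (443), LAPTM4A (249), PSAP (215.5) and CTSZ (209.6). CTSD moved to place 9 at 72 h, against place 6 in No Dox, and LIPA to place 8, against place 20. CTSS was last in every group.

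**Figure D4:**
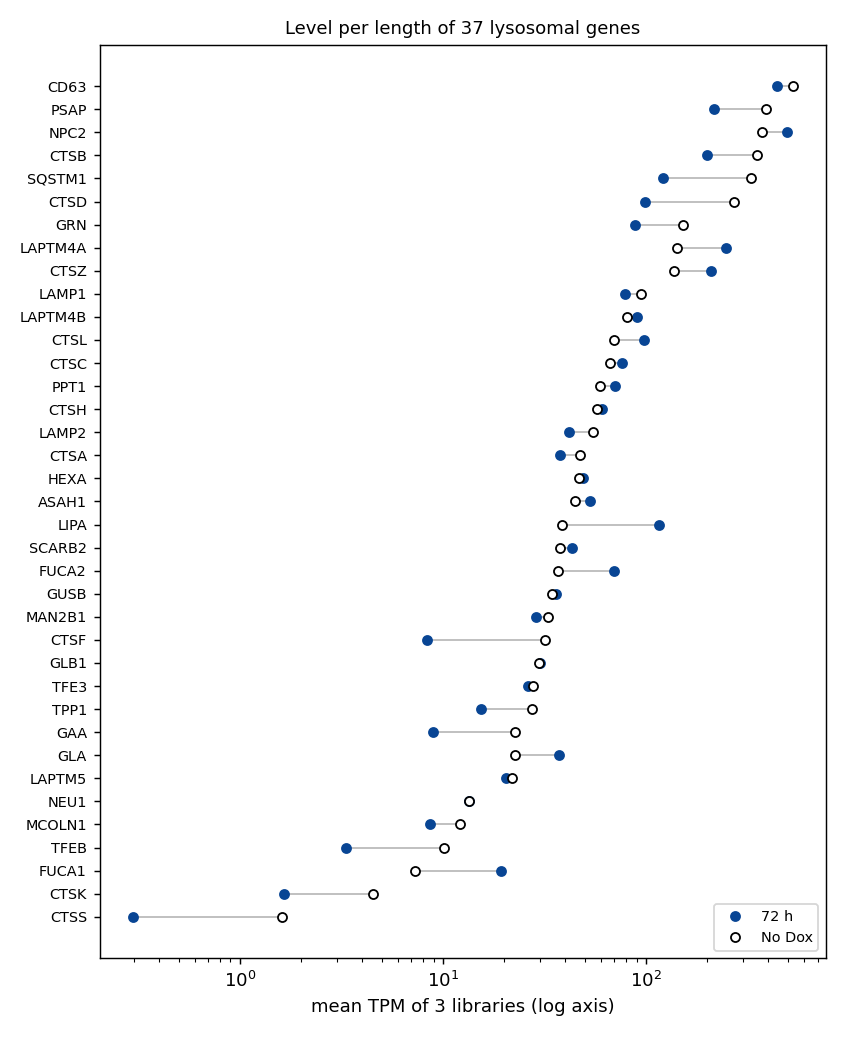
Mean TPM of 3 libraries for the 37 genes at 72 h (filled) and in No Dox (open), on a log axis, ordered by the No Dox level. CTSF, GAA and CTSS lie far left of their No Dox points, and LIPA, at 116 TPM against 38.4 TPM, far to the right.

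Summed over the 37 genes, the set made up 3712 ± 56.6 TPM in No Dox and 3219 ± 38.5, 3179 ± 7.5 and 3267 ± 73.9 TPM at 24, 48 and 72 h. The 9 Dox libraries were at 3173 to 3318 TPM, under the lowest No Dox library at 3670 TPM. Among roles, proteases were at 1069 ± 49.5 TPM in No Dox and 871 ± 9.81, 842 ± 6.36 and 808 ± 30.8 TPM in Dox. Regulators, of which SQSTM1 is the bulk, were at 367 ± 8.71 TPM in No Dox and 207 ± 2.81, 149 ± 4.95 and 151.5 ± 14.6 TPM in Dox. Glycosidases were the role with a higher sum in Dox, at 247 ± 5.11 TPM in No Dox and 293 ± 6.84, 291 ± 9.04 and 292 ± 13.6 TPM in Dox. Membrane proteins stayed between 949 and 986 TPM in all group means. Lipid hydrolases, saposins and carriers were at 1059 ± 22.4 TPM in No Dox, 899.5 ± 20.9 and 912 ± 28.3 TPM at 24 and 48 h and 1039 ± 18.9 TPM at 72 h. These sums are descriptions and were not tested.

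**Figure D5:**
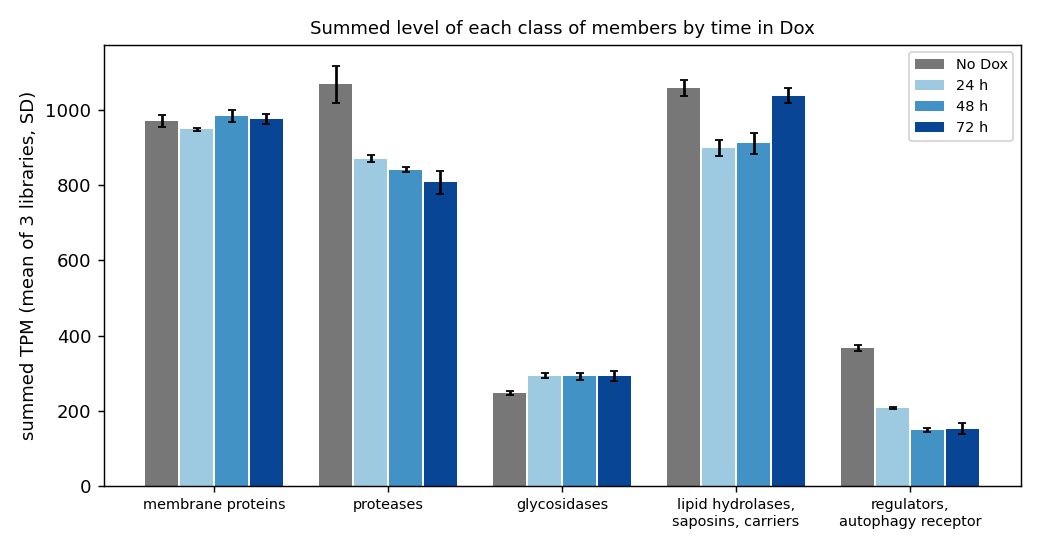
Summed TPM of the genes of each role by time in Dox, as the mean and SD of 3 libraries per group. Proteases and regulators stand lower in Dox, glycosidases higher, and membrane proteins between 949 and 986 TPM throughout.

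RSEM also gives an effective length, which shifts where longer or shorter transcripts of a gene are used. The clearest shift was in CTSC, cathepsin C, which activates serine proteases of granules. Its effective length was 1703 ± 73.8 nt in No Dox and 1516 ± 61.4, 1534 ± 109.8 and 1359 ± 33.6 nt at 24, 48 and 72 h, a change of -11.01%, -9.94% and -20.2%. Two-sided exact permutation tests gave p = 0.1 for each time (n = 3 against 3), the lowest value this design can reach. On counts CTSC was at 0.51, -0.07 and -0.20 (adjusted p 1.10e-08, 0.249 and 0.00206). With effective lengths in the fit its 72 h value turned to 0.10 (adjusted p = 0.299), so its direction at 72 h depended on the length. LAMP2 had a longer effective length in Dox, at 2525 ± 16.9 nt in No Dox and 2791 ± 63.4, 2806 ± 24.3 and 2777 ± 71.3 nt in Dox, and PPT1 was 7.17%, 6.77% and 6.93% longer (p = 0.1 in the same exact test for each of the 6). ASAH1 was shorter at 24 and 48 h without overlap (-9.06% and -10.01%, p = 0.1 in the same exact test) and overlapped at 72 h (-2.43%). TPP1 was 11.6% longer at 24 h and 13.7% longer at 72 h but not at 48 h (-2.65%, groups overlapping). Of the 6 genes called lower at all 3 times, CTSD and CTSF changed least in length, by -2.23% for CTSF at 48 h at the widest. GAA was at 5.66%, -8.2% and 0.845%, CTSK at -14.6%, -1.16% and -11.2%, and CTSS, with its few counts, at 136.9%, 10.4% and -27.1%, all with overlapping groups. TFEB was 11.8% longer at 72 h without overlap (p = 0.1 in the same exact test) and overlapped at 24 and 48 h. All 6 were called lower at each time with effective lengths in the fit too.

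Other genes of the pathway were read from lists to place the 37 among their surroundings. Of 25 tested other lysosomal hydrolases, 2, 3 and 3 were called higher (8%, 12% and 12%, against 12%, 10.6% and 10.2% of all genes) and 7, 7 and 7 lower at 24, 48 and 72 h (28% each, against 17.7%, 14.4% and 12.3%). IDUA, the iduronidase of glycosaminoglycan breakdown, was at 10.05 ± 1.76 CPM in No Dox and 2.10 ± 0.582, 2.06 ± 0.240 and 2.43 ± 0.396 CPM in Dox (log2 fold changes -2.28, -2.30 and -2.07). ARSA, an arylsulfatase that acts on sulfatide, was called lower at each time (-1.15, -1.94 and -1.54), while ARSB, which acts on dermatan sulfate, was called higher (1.64, 1.78 and 1.34). CTSV, a close relative of CTSL, rose as well, to 9.75 ± 1.11, 10.2 ± 0.186 and 7.42 ± 0.599 CPM in Dox, against 2.42 ± 0.550 CPM in No Dox.

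Other lysosomal membrane proteins had 2, 1 and 1 called higher (9.52%, 4.76% and 4.76%) and 3, 2 and 4 lower (14.3%, 9.52% and 19.05%) of 21, so their lower share exceeded that of all genes at 72 h alone. LAMP3, a relative of LAMP1 found in dendritic cells and type II pneumocytes, was at 3.801 ± 0.387 CPM in No Dox and 14.9 ± 0.368, 34.7 ± 1.67 and 57.0 ± 2.43 CPM at 24, 48 and 72 h (1.97, 3.19 and 3.90, adjusted p 1.26e-13, 9.08e-18 and 2.10e-19). Whereas LAMP1 and LAMP2 kept within 0.53 of No Dox on the log2 scale, LAMP3 was called at all 3 times. TPCN1, a cation channel of endolysosomes, was at 194 ± 4.15 CPM in No Dox and 57.5 ± 1.84, 40.9 ± 1.47 and 49.7 ± 3.01 CPM in Dox (-1.76, -2.25 and -1.97). SLC17A5, the sialic acid exporter, was called lower at 24 h (-1.36), CLN3 at 72 h (-1.25) and CD68 at 48 h (-1.62). Of 16 genes of the V-ATPase, the proton pump that acidifies the lumen, 0 were called in either direction at any of the 3 times by edgeR or by DESeq2. At adjusted p alone 9, 6 and 2 of them were higher and 3, 3 and 7 lower, and the same numbers passed an unadjusted p under 0.05. The higher ones are 56.25%, 37.5% and 12.5% of the 16, against 37.1%, 36% and 34.3% of all genes. The lower ones are 18.75%, 18.75% and 43.75%, against 38.1%, 35.8% and 34.8% of all genes.

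A list of TFEB relatives and of genes linked to nutrient sensing at the lysosome held 17 tested genes. In it 1 was called higher at each time (5.88%), against 12%, 10.6% and 10.2% of all genes. Called lower were 2, 1 and 3 (11.8%, 5.88% and 17.6%), against 17.7%, 14.4% and 12.3%. PPARGC1A was among the lower calls at each time (log2 fold changes -7.70, -5.49 and -7.77). It was at 4.86 ± 0.522 CPM in No Dox and under 1 CPM in Dox, so the size of its change is known only roughly. PPARGC1A passed the low-count filter through its No Dox libraries, so a lower direction in Dox was favoured beforehand. At 48 h it was the only lower call of this list. The higher call at 72 h was RRAGD, at 1.04 ± 0.179 CPM at 72 h, against 0.513 ± 0.259 CPM in No Dox (log2 fold change 1.01, adjusted p = 0.0438), and DESeq2 called 0 higher there. LAMTOR1, the anchor of the Ragulator complex, rose at 24 and 48 h (1.36 and 1.20). RRAGB, a Rag GTPase, fell at 24 and 72 h (-1.46 and -1.04), and FLCN, folliculin, at 72 h (-1.30). MITF, the relative of TFEB and TFE3, was at 9.74 ± 0.0994 CPM in No Dox and 13.0 ± 2.03, 9.42 ± 0.964 and 11.3 ± 0.649 CPM in Dox.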

How the data were processed

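The 12 libraries were poly(A)-selected and dUTP-stranded and were sequenced as paired ends. Per the study's methods, the authors mapped reads to GRCh38 with STAR under GENCODE version 22 and ran RSEM. Tool versions and RSEM's strand option are not stated in the sources used here. For genes that overlap on opposite strands, reads may therefore not be told apart.

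The deposited tables hold RSEM expected counts, TPM, effective lengths and the posterior SD of the count. The deposited expected counts, rounded to whole numbers, were used for tests. The deposited TPM, which RSEM brings to the same sum in every library, were used for levels between genes. Effective length, an RSEM estimate in nt deposited by the authors, was compared by exact permutation tests. FPKM were not used here.

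Groups came from the sample labels. Counts passed filterByExpr and TMM scaling, and 1 quasi-likelihood model with a coefficient for each group took all 12 libraries (edgeR 4.0.16 and limma 3.58.1 in R 4.3.3). The biological coefficient of variation was 5.71%. A call needed an adjusted p (Benjamini-Hochberg, over all 14822 genes) under 0.05 and a log2 fold change of 1 or more in size. The procedure was tested on simulated data. Gene names and positions were looked up in GENCODE version 44 through stable identifiers, and promoters in RefSeq (GRCh38.p14).

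The 37 genes and the other lists were chosen with earlier results of these data known, and the list as such was given no p-value. Values per library are given for genes called in any comparison and for TFEB, TFE3 and SQSTM1. Up to 3 called genes per other list and comparison, of at least 5 CPM, are named, and values of further list genes stand where a result turns on them. A planned description of protein sequences was not made, since no protein table was used. The fit was repeated with DESeq2 (1.42.0), with its size factors in edgeR, without the low-count filter, with effective lengths as offsets, on only the 2 groups of a comparison, with a replicate block and without each library in turn.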

Additional observations from a re-analysis of the deposited data

Results flagged for a closer look

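Levels at 72 h and 24 h in Dox, tested directly in edgeR, differed by adjusted p for 22 of the 37 genes. At 72 h 13 were higher (35.1%) and 9 lower (24.3%), against 30.5% and 30.2% of all genes, so such differences were about as frequent in the set as elsewhere. Of the 22, LAPTM5 and FUCA1 were called, and ASAH1, MCOLN1 and CTSC passed adjusted p against No Dox in opposite directions at the 2 times. For LAPTM5 the difference was 5.24 on the log2 scale (adjusted p = 1.22e-16), with all 3 libraries of 72 h above all 3 of 24 h. FUCA1 was higher by 1.22 (adjusted p = 2.41e-10), also without overlap. ASAH1 was 0.59 higher at 72 h (adjusted p = 9.05e-09) and lay below No Dox at 24 h and above it at 72 h, where adjusted p against No Dox was lost with effective lengths in the fit (0.0713). For MCOLN1 the difference was -0.88 (adjusted p = 3.18e-07), above No Dox at 24 h and below it at 72 h. The difference of CTSC was -0.71 (adjusted p = 2.43e-10), and its effective length at 72 h was 1359 nt, against 1516 nt at 24 h. The other 17 were less than 2-fold apart. Higher at 72 h on the log2 scale were SCARB2 by 0.78, LIPA by 0.73, TFEB by 0.45, GAA by 0.43, GLB1 by 0.39, CTSH by 0.35, GRN by 0.22, LAMP2 by 0.20, TPP1 by 0.17 and PSAP by 0.13. Lower were SQSTM1 at -0.69, GLA at -0.55, NEU1 at -0.44, LAMP1 and CTSB at -0.30 each, LAPTM4B at -0.23 and GUSB at -0.16.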

How the results depend on the processing

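All 16 counts of called or adjusted-p genes stayed within 1.5 times of their main value in each of 18 alternatives, of which 12 left out a library each, and 0 of 31 calls among the 148 log2 fold changes were lost. With effective lengths as offsets the median of the set at 48 h was -0.19, against -0.13 without them, and 2 values that had passed adjusted p changed sign, ASAH1 at 48 h to 0.0153 (adjusted p = 0.853, against -0.13) and CTSC at 72 h to 0.10 (adjusted p = 0.299, against -0.20). TPP1 and PSAP at 48 h passed 2-fold with DESeq2 or its size factors (-1.004 and -1.007) or without 48 h replicate 1, PSAP and GRN without No Dox replicate 2 (-1.008 and -1.003), GRN without 48 h replicate 1 (-1.007), TPP1 without 48 h replicate 3 (-1.01), and TPP1 at 24 h with effective lengths (-1.06). Replicate numbers were not treated as pairs in the main fit. Deviations from the group means correlated at -0.205 to 0.32 in 18 same-number pairs, and the correlation exceeded 0.1 in 3. Its mean was 0.0173, against -0.0091 for the other pairs. The labels give no origin for the replicates, so these values cannot settle whether pairing exists. With the replicate block the called counts at 24 h were again 1 higher and 9 lower, the median there was -0.30, and no call changed. Depth limited CTSS, with 2 to 11 counts per library in Dox.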

Other observations

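Inhibitors of cathepsins were measured beside the proteases. Of 7 tested genes of cystatins and cathepsin-inhibiting serpins, 1, 1 and 3 were called higher and 3, 3 and 2 lower at 24, 48 and 72 h, which are shares of few genes (14.3%, 14.3% and 42.9% higher and 42.9%, 42.9% and 28.6% lower, against 12%, 10.6% and 10.2% and 17.7%, 14.4% and 12.3% of all genes). CST6, cystatin E/M, was at 2.34 ± 0.536 CPM in No Dox and 21.65 ± 2.87, 18.7 ± 1.79 and 22.3 ± 0.216 CPM in Dox (log2 fold changes 3.19, 2.99 and 3.24). CST3, the secreted cystatin C, was at 178 ± 6.44 CPM in No Dox and 93.9 ± 9.78, 71.2 ± 7.07 and 61.9 ± 3.87 CPM in Dox and was called at 48 and 72 h (-1.32 and -1.52). CSTA, the cytosolic cystatin A of keratinocytes, was called lower at each time (-1.16, -1.46 and -1.24). SERPINB3 was at 2.65 ± 0.821 CPM in No Dox and 0.319 ± 0.0921, 3.33 ± 0.350 and 8.40 ± 0.216 CPM at 24, 48 and 72 h, called lower at 24 h (-2.99) and higher at 72 h (1.67).

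Of 27 autophagy genes 5, 2 and 2 were called lower at 24, 48 and 72 h (18.5%, 7.41% and 7.41%, near or below the 17.7%, 14.4% and 12.3% of all genes), and edgeR and DESeq2 each called 0 higher. Adjusted p alone, and likewise an unadjusted p under 0.05 in the higher direction, passed for 3, 4 and 4 higher, and adjusted p passed for 17, 16 and 17 lower. The higher ones are 11.1%, 14.8% and 14.8% of the 27, against 37.1%, 36% and 34.3% of all genes. The lower ones are 63.0%, 59.3% and 63.0%, against 38.1%, 35.8% and 34.8% of all genes. ULK1, the kinase that starts autophagosome formation, was at 54.5 ± 0.887 CPM in No Dox and 16.1 ± 0.786, 21.3 ± 0.160 and 18.96 ± 1.31 CPM in Dox (-1.76, -1.36 and -1.53). OPTN, a cargo receptor like SQSTM1, was called lower at each time (-1.40, -1.47 and -1.19), and TP53INP2 at 24 h (-1.50). Among 16 sorting genes, 1 was called higher and 1 lower at each time (6.25%, below the share of all genes in each direction). SORL1, a sorting receptor, fell at all 3 times (-1.81, -1.64 and -1.58), AP1B1, an adaptor subunit, rose at 24 h (1.09), and SORT1, sortilin, which also carries prosaposin and progranulin, was at 56.3 ± 2.55 CPM in No Dox and 61.8 ± 2.15, 115 ± 4.03 and 166 ± 9.41 CPM in Dox (0.14, 1.03 and 1.56, called at 48 and 72 h).

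Fibroblast markers, 8 in all, summed to 54.5 to 56.4 CPM in No Dox and 3.18 to 4.90, 1.92 to 3.03 and 2.02 to 3.44 CPM at 24, 48 and 72 h. DCN made up most of the No Dox sum, at 50.1 ± 0.954 CPM there and 1.11 ± 0.396, 0.191 ± 0.0590 and 0.0626 ± 0.109 CPM in Dox. Their part in the changes of lysosomal genes was not tested.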
